A study of Mus musculus with 2 samples.

Results

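Serpins are a family of proteins with a common fold, most of which block serine proteases by a suicide mechanism, in which the protease cleaves an exposed loop of the serpin and is trapped in a covalent complex with it. The liver secretes most of the serpins found in plasma, where they restrain neutrophil proteases, coagulation, fibrinolysis and complement, and a few members have lost the inhibitory function and carry hormones or fold collagen instead. Mouse genes are named by clade, from Serpina to Serpini, and several clades hold runs of recently duplicated copies. The members described here are the mouse genes whose symbol is Serpin followed by a clade letter from a to i, a number and any copy letter, and where a gene had several transcripts the one with the highest mean level stands for it. The annotation holds 64 such symbols, of which 60 had a transcript among the 20317 genes with a symbol in the mRNA table. The other 4 (Serpina16, Serpina3g, Serpina3h and Serpinb9h) had none there.

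The RNA-seq data came from 2 libraries of primary hepatocytes from wild-type C57BL/6J mice, 1 from control mice given intraperitoneal oil and 1 from model mice given intraperitoneal CCl4, a solvent whose metabolism injures hepatocytes and whose repeated injection leads to liver fibrosis. The mice were male and 5 weeks old when obtained, before the injections. The CCl4 group received a 20% solution in mineral oil at 2.5 ml CCl4 per kilogram in 2 injections a week. The labels give 8 weeks of injection and the methods text gives 4 weeks. Hepatocytes were isolated by perfusing the liver with digesting enzymes and by density gradient centrifugation. The number of mice behind each library was not given in the sources used here, and with 1 library per condition none of the differences below has a replicate check or a test.

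Levels were deposited as RPKM, which are reads scaled by transcript length and library size, and values under 1 RPKM were listed as 0. The steps between RPKM values gave library totals of 57992564 reads for oil and 64655545 reads for CCl4, so that 1 RPKM corresponds to 58.0 and 64.7 reads per kilobase. A gene was called higher or lower when its log2 fold change from oil to CCl4, with 0.1 RPKM added to both levels, was at least 1 in size. Of 10689 genes listed above 0 in both libraries, 14.3% were called higher and 5.48% lower, and the median log2 fold change was 0.30. Changes are given without removing this general shift. Hepatocyte markers were abundant in both libraries, as for Alb, with 8656 RPKM in oil and 6476 RPKM in CCl4, and 9 of 9 were listed in both. Genes of other cells were present as well, among them erythroid markers, which summed to 2053 RPKM in oil and 1413 RPKM in CCl4. The markers of stellate cells and myofibroblasts summed to 73.0 RPKM in oil and 859 RPKM in CCl4, those of Kupffer cells and macrophages to 777 and 1482 RPKM, and genes of pancreatic acinar cells, a list chosen after values were seen, to 7708 and 3171 RPKM. In bulk RNA, fewer cells of a type and less RNA per cell cannot be told apart.

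The serpins that fell in the CCl4 library were led by the abundant Serpina1 and Serpina3 genes, and the 4 serpins that rose included the collagen chaperone Serpinh1, the intracellular inhibitor Serpinb6a and the thrombin inhibitor Serpine2. Of the 60 members, 27 were listed in both libraries, 2 in oil only, 2 in CCl4 only and 29 in neither. Among the 27, 14 fell, 4 rose and 9 were not called, against the 5.48% lower and 14.3% higher of all genes given above. Their median log2 fold change was -1.01, and 19 lay below 0. Over all genes, the abundant ones also had a median below that of the whole table. Of 444 genes with a mean of at least 100 RPKM, 32.2% were called lower and the median was -0.46, and 10 of the 11 serpins at that level were called lower with a median of -1.81. Of these 11, however, 8 are near-identical copies of Serpina1 and Serpina3, all called lower, and of the other 3 (Serpinc1, Serpinf2 and Serping1) 2 were called lower with a median of -1.01. The 60 members together summed to 16586 RPKM in oil and 3591 RPKM in CCl4, or 4.92% and 1.28% of all summed mRNA RPKM. Near-identical copies share reads, and without Serpina1a to Serpina1e and the Serpina3 cluster 6 of 17 members (35.3%) were called lower and the median was -0.54.

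**Figure D1:**
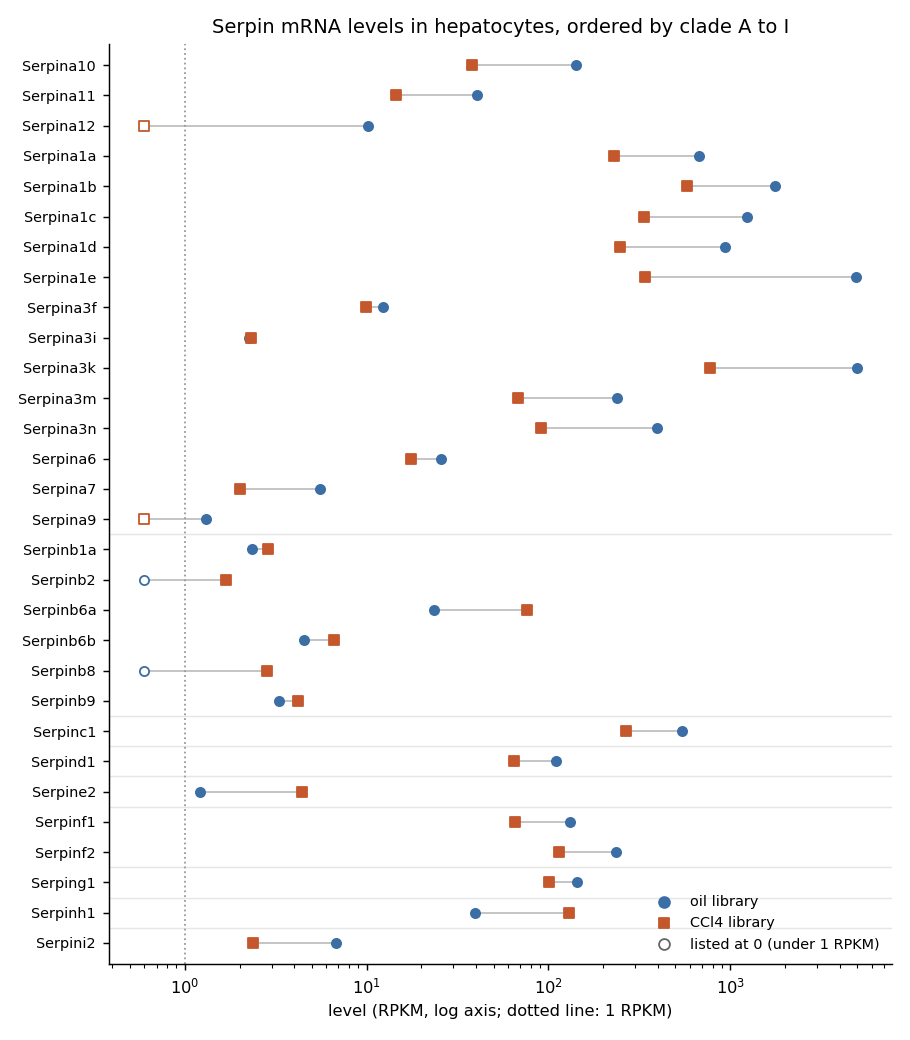
Level of 30 serpin genes listed in at least 1 library, in RPKM on a log axis, with circles for the oil library and squares for the CCl4 library, ordered by clade. Most clade A genes lie to the left in CCl4, Serpinh1 and Serpinb6a lie to the right, and open symbols stand for a listed 0, drawn left of the 1 RPKM line.

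Clade A, which holds alpha-1-antitrypsin, the antichymotrypsin-like inhibitors and the hormone carriers, carried most of this difference. It had 22 members, of which 14 were listed in both libraries, 11 fell and none was called higher. Of all genes, 5.48% were called lower, and 32.2% of those with a mean of at least 100 RPKM. Its summed level was 15341 RPKM in oil and 2742 RPKM in CCl4, 5.59-fold lower, and its share of all mRNA RPKM went from 4.55% to 0.975%. Serpina3f, Serpina3i and Serpina6 were not called. Another 2 genes were listed in oil only and have no fold change, although Serpina12 among them went from 10.1 RPKM to a value under 1 RPKM. The remaining members of the clade were listed in neither library.

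The Serpina1 genes encode alpha-1-antitrypsin, the main plasma inhibitor of neutrophil elastase, which the mouse keeps as several copies side by side on chromosome 12. Serpina1e (NM_009247) was the highest copy in oil with 4890.2 RPKM and was at 339 RPKM in CCl4, a log2 fold change of -3.85. It stood 5th from the top of all genes in oil and 101st in CCl4, and its fold change was the 12th lowest of the 10689 genes. Serpina1b (NM_009244) was at 1755 RPKM in oil and 576 RPKM in CCl4 and was the highest copy in the latter. Serpina1c (NM_009245) was at 1242 and 334 RPKM, Serpina1d (NM_009246) at 940.3 and 249 RPKM, and Serpina1a (NM_009243) at 672 and 228 RPKM. These 4 copies had log2 fold changes between -1.92 and -1.56, so all 5 copies fell and Serpina1e fell further than the rest. At least 284730 reads in oil and 22025 reads in CCl4 lay behind Serpina1e, and its 95% counting interval of -3.87 to -3.83 did not overlap that of any other copy, the nearest being Serpina1d at -1.94 to -1.89. Such intervals, which refer to the ratio without an added value, cover counting error only, since PCR copies of a molecule are not independent reads.

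The 5 copies summed to 9499 RPKM in oil and 1726 RPKM in CCl4, a log2 fold change of -2.46, and without Serpina1e the other 4 summed to 4609 and 1387 RPKM, a log2 fold change of -1.73. Serpina1e made up 51.5% of the sum in oil and 19.7% in CCl4. The share of Serpina1b went from 18.5% to 33.3% and that of Serpina1a from 7.08% to 13.2%, so each of the 4 other copies had a larger share of a smaller sum in CCl4. How the authors divided reads that match several copies is not given in the sources used here, so the split between copies is uncertain. The sum does not depend on this split, but reads that were dropped or counted for every copy would change it, which was not tested.

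**Figure D2:**
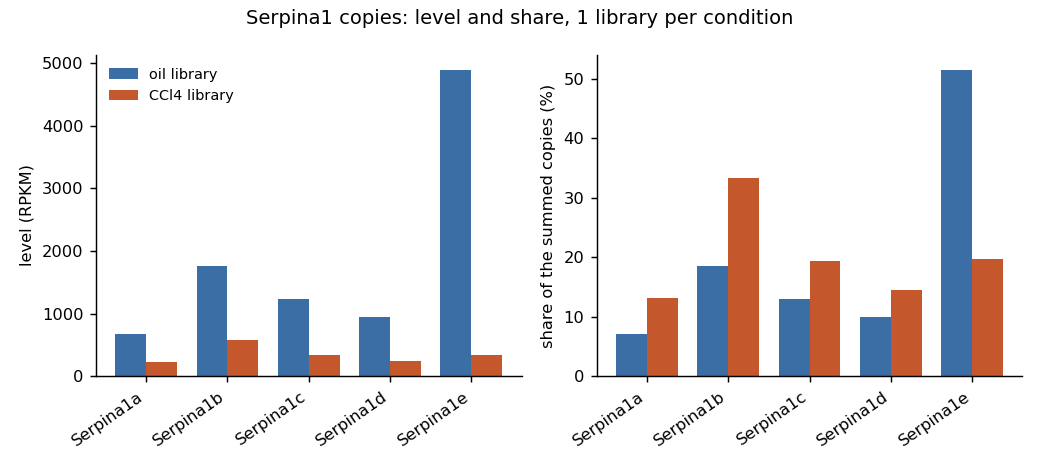
Level in RPKM (left) and share of the summed level in percent (right) of the 5 Serpina1 copies, with 1 bar for each library. Serpina1e falls from 51.5% to 19.7% of the sum while the share of Serpina1b goes from 18.5% to 33.3%.

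The start regions of the copies show how alike these genes are. The windows run from 250 bases before to 50 bases after the annotated start (RefSeq, GRCm38.p6, the mm10 sequence), and 3 are printed because they stand for the copy that fell most, the copy whose aligned window is most like it and the copy that fell least. All 3 are on the minus strand, Serpina1e at chr12:103956848-103957147, Serpina1b at chr12:103738140-103738439 and Serpina1a at chr12:103863570-103863869. The capitals mark the letters GTTAAT, a motif that all 5 copies hold.
Serpina1e: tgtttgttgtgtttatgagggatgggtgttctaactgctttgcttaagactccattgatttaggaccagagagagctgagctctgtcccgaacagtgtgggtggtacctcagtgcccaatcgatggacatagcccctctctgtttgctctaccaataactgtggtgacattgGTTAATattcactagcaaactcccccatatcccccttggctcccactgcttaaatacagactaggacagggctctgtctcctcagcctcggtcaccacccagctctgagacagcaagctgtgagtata
Serpina1b: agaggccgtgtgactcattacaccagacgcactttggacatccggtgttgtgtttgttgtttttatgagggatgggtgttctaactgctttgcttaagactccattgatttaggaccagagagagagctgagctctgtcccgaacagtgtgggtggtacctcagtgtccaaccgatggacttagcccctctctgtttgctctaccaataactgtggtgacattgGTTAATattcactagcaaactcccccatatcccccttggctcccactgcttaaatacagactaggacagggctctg
Serpina1a: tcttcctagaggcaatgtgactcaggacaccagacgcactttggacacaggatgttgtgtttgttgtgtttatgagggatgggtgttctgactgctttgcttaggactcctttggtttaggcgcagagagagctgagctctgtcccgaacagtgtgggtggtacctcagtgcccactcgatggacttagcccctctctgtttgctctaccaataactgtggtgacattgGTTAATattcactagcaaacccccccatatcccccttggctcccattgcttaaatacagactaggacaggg

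The Serpina1b and Serpina1e windows were 98.4% identical over 248 aligned bases, although the annotated start of Serpina1e lies 52 bases further along the shared sequence. Pairs with Serpina1e were 95.2% to 98.4% identical over 238 to 249 aligned bases, and pairs of the other copies 91.7% to 94.9% over 288 to 298. These ranges cover different stretches and do not rank the pairs. GTTAAT began 78 bases before the start in Serpina1e, 26 in Serpina1b and 21 in Serpina1a, in the same stretch of shared sequence. Of 32851 windows of all genes, 7.1% hold these letters on either strand. Among the 23 listed serpins with a window, 8 held them, namely Serpina1a to Serpina1e, Serpina7, Serpini2 and Serpinb8, and the 5 copies share this sequence and do not count as separate cases. Serpina1a to Serpina1d also held TGANTCA, the letters of an AP-1 site, as did Serpinb2 and Serpinb8, against 7.81% of all windows. Here too the copies share the sequence and do not count as separate cases. The Serpina1e window begins further along and does not reach the stretch where the other copies hold TGANTCA. Of the other letters searched, GGGCGG (a GC box) was in 6 of the 23 listed members (Serpina12, Serpinb6a, Serpinb6b, Serpinb9, Serpine2 and Serpinh1), against 35.7% of all windows. TTCNNNGAA (a STAT site) was in 5, against 8.3%, CAGACA (a Smad box) in 6, against 21.0%, and GAANNTTC (part of a heat shock element) in 0, against 7.86%. Such matches describe the sequence and are not evidence of binding.

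The Serpina3 genes are the mouse relatives of human alpha-1-antichymotrypsin, an acute-phase inhibitor of chymotrypsin-like proteases. Of 9 members with a transcript, 5 were listed in both libraries and 4 (Serpina3a, Serpina3b, Serpina3c and Serpina3j) in neither. Serpina3k (NM_011458) was the 4th highest of all genes in oil with 4970.5 RPKM and the 25th in CCl4 with 773 RPKM, a log2 fold change of -2.69 with a counting interval of -2.70 to -2.67. Serpina3n (NM_009252), an inhibitor of granzyme B, was at 394 RPKM in oil and 91.0 RPKM in CCl4, a log2 fold change of -2.11. Serpina3m (NM_009253) was at 238 and 68.1 RPKM, a log2 fold change of -1.81. All 3 abundant genes of this group fell, and Serpina3k fell the most. The 2 low copies differed less. Serpina3f (NM_001168294) was at 12.3 RPKM in oil and 9.93 RPKM in CCl4, a log2 fold change of -0.30, and Serpina3i (NM_001199940) was at 2.26 and 2.31 RPKM, a log2 fold change of 0.03 with a counting interval of -0.20 to 0.27. The group summed to 5617 and 944 RPKM, a log2 fold change of -2.57, and Serpina3k made up 88.5% of it in oil and 81.8% in CCl4. The Serpina3 copies were treated as near-identical by name, and their sequences were not compared here. The split of their reads is uncertain in the same way.

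The other members of clade A include inhibitors of coagulation and carriers of hormones. Serpina10 (NM_144834), the protein Z-dependent inhibitor of factor Xa, was at 141 RPKM in oil and 38.2 RPKM in CCl4, a log2 fold change of -1.89. Serpina11 (NM_001166350) was at 40.5 and 14.4 RPKM, a log2 fold change of -1.48. Both fell, by amounts near those of Serpina1a to Serpina1d. Of the hormone carriers, which do not inhibit proteases, Serpina6 (NM_007618), corticosteroid-binding globulin, was at 25.7 RPKM in oil and 17.6 RPKM in CCl4, a log2 fold change of -0.54 that was not called. Serpina7 (NM_177920), thyroxine-binding globulin, fell from 5.54 to 2.001 RPKM, a log2 fold change of -1.42, and is the 1 clade A gene on chromosome X. Serpina12 (NM_026535), the adipokine vaspin, was listed at 10.1 RPKM in oil and at 0 in CCl4, and Serpina9 (NM_027997) at 1.31 RPKM and 0. Serpina12 rested on at least 631 reads in oil, and no fold change is given for a listed 0. Without the Serpina1 and Serpina3 copies, clade A summed to 225 RPKM in oil and 72.2 RPKM in CCl4, a log2 fold change of -1.64, so the direction of the clade did not rest on the copies. Serpina5, the protein C inhibitor, and Serpina1f were listed in neither library. Angiotensinogen (Agt), which has the serpin fold under another name, was at 128 and 88.8 RPKM, a log2 fold change of -0.52 close to that of Serpina6.

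Apart from Serpina7, the clade A genes with a transcript lie in a single stretch of chromosome 12 (positions 103616675 to 104414334, mm10) that holds 21 members over 798 kb. Of these, 15 were listed in at least 1 library. Serpina10 and Serpina6 are at one end, followed by the Serpina1 copies, Serpina11, Serpina9 and Serpina12, and the Serpina3 copies close the stretch. Among coding genes listed in both libraries, called falls were found in 2 stretches, from Serpina10 at 0 kb to Serpina11 at 364 kb and from Serpina3k at 722 kb to Serpina3n at 790 kb. The interval between them holds Serpina9 and Serpina12, listed in oil only and so without a fold change, although Serpina12 went from 10.1 RPKM to a value under 1 RPKM. It also holds 5 genes listed at 0 in both libraries (Serpina5, Serpina3a, Serpina3b, Serpina3c and Serpina3j), Serpina3f and Serpina3i, which were not called, and among the lncRNAs the pseudogene Serpina4-ps1, at 109 RPKM in oil and 1.77 RPKM in CCl4, and Serpina3h, at 2.62 and 2.20 RPKM. Within the first stretch Serpina6, 29.96 kb from Serpina10, was not called. Among the coding genes listed in both libraries, Serpina1e and Serpina3k fell the most and are the 2 highest in oil.

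**Figure D3:**
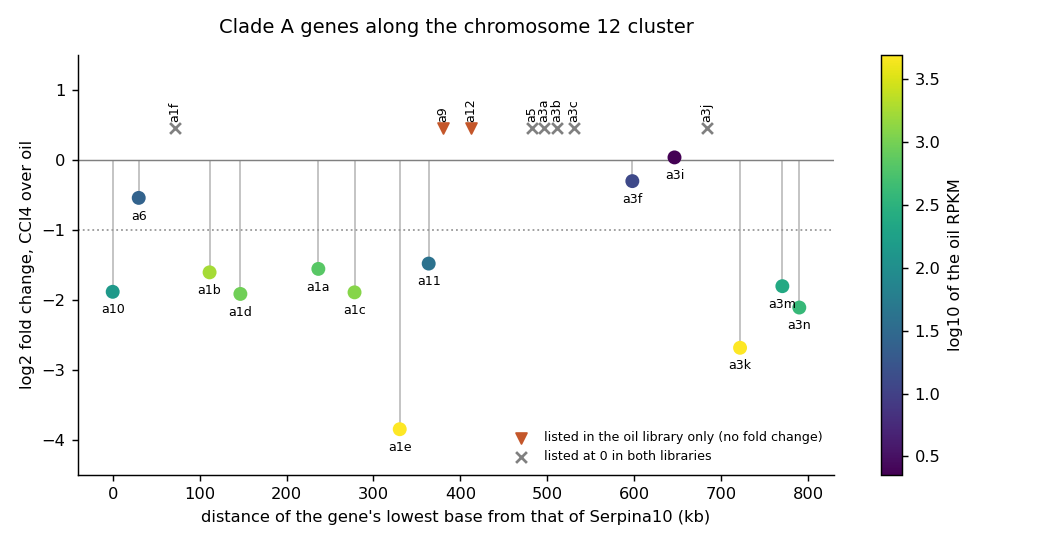
Log2 fold change of the clade A genes along the chromosome 12 stretch, against the distance in kb from the first gene, Serpina10, with the oil level as colour (log10 RPKM) and names without the leading Serpin. Called falls of coding genes listed in both libraries occur from 0 kb to 364 kb and from 722 kb to 790 kb, with Serpina1e and Serpina3k lowest, and crosses and triangles mark genes without a fold change.

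Of 9 hepatocyte markers, most of them abundant, 4 were called lower and none higher, beside the 32.2% of all genes with a mean of at least 100 RPKM that were called lower. Their median was -0.998, and their sum was 16771 RPKM in oil and 10010 RPKM in CCl4, a log2 fold change of -0.74. Alb alone had -0.42 and Cyp2e1, the enzyme that activates CCl4, -2.33. The clade A sum, at -2.48, was below both the marker sum and Alb. Of 20 protease inhibitors outside the serpin family, 11 were called lower and 4 higher, with a median of -1.14 over the 19 listed in both. Ahsg (fetuin-A) was at 2646 and 1462 RPKM, Ambp (bikunin precursor) at 1499 and 665 RPKM, and the largest fall was that of Itih3, an inter-alpha-trypsin inhibitor heavy chain, from 362 to 97.8 RPKM. The median of the 14 clade A genes was -1.71. The part of hepatocyte content in these differences was not tested.

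The 5 liver-secreted serpins of clades C, D, F and G, most of which limit coagulation, fibrinolysis or complement, differed less than the clade A sum. Of these 5, 2 were called lower, beside 5.48% of all genes and 32.2% of those with a mean of at least 100 RPKM. Serpinc1 (NM_080844), antithrombin, the chief inhibitor of thrombin and factor Xa, was at 542 RPKM in oil and 269 RPKM in CCl4, a log2 fold change of -1.01. Serpinf2 (NM_008878), alpha-2-antiplasmin, was at 237 and 114 RPKM, a log2 fold change of -1.05. Both fell, but the counting interval of Serpinc1, -1.04 to -0.99, crosses the limit for a call, and that of Serpinf2 ends at -1.01. Serpinf1 (NM_011340), pigment epithelium-derived factor, a non-inhibitory serpin with anti-angiogenic activity, was at 131 and 65.7 RPKM, a log2 fold change of -0.99 just short of the call. Serpind1 (NM_008223), heparin cofactor II, was at 110 and 64.6 RPKM, a log2 fold change of -0.77. Serping1 (NM_009776), the C1 inhibitor of complement and of contact activation, was at 143 RPKM in oil and 100.3 RPKM in CCl4, a log2 fold change of -0.51, the smallest among these 5 genes. Together they summed to 1163 and 613 RPKM, a log2 fold change of -0.92. With the libraries scaled by the median of ratios over all genes, Serpind1 (-1.07) and Serpinf1 (-1.29) were called lower too.

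Their target proteases are also made by the liver, and most of them were lower in CCl4. Of 15 plasma proteases that serpins inhibit, 14 were listed in both libraries, 8 fell and 1 rose, with a median of -1.11. Over all genes, 5.48% were called lower and 14.3% higher, beside 32.2% lower among those with a mean of at least 100 RPKM. The proteases that went the other way were urokinase (Plau), the 1 that rose, and Masp1, at 14.6 and 23.8 RPKM, which was not called. Tissue plasminogen activator (Plat) was listed in CCl4 only. Thrombin (F2) was at 473 and 218 RPKM, plasminogen (Plg) at 347 and 158 RPKM, and F11, the largest fall, at 10.6 and 2.87 RPKM. The level of a serpin per level of its target was set out for 8 pairs, and for some of them it was nearly the same in both libraries. Serpinc1 had 1.15 times the level of F2 in oil and 1.23 times in CCl4, and 4.72 and 4.48 times that of F10. Serpinf2 had 0.683 and 0.723 times the level of Plg. Serping1 had 1.55 times the level of the complement protease C1s1 in oil and 1.35 times in CCl4. Other pairs shifted. Serpina10 had 1.23 times the level of F10 in oil and 0.637 times in CCl4, and Serping1 had 5.75 and 11.7 times the level of plasma prekallikrein (Klkb1) and 0.845 and 1.28 times that of F12. Between these lay Serpind1, with 0.233 and 0.296 times the level of F2. Of 8 cofactors and clearance receptors of serpins, 2 rose and 2 fell, with a median of 0.53. Among them vitronectin (Vtn), a plasma and matrix adhesion protein, fell from 1036 to 434 RPKM, the syndecan Sdc4 fell from 231 to 62.5 RPKM, the heparan sulfate proteoglycan perlecan (Hspg2) rose from 9.84 to 25.9 RPKM, and Lrp1, the receptor that clears serpin-protease complexes, was at 81.1 and 118 RPKM.

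**Figure D4:**
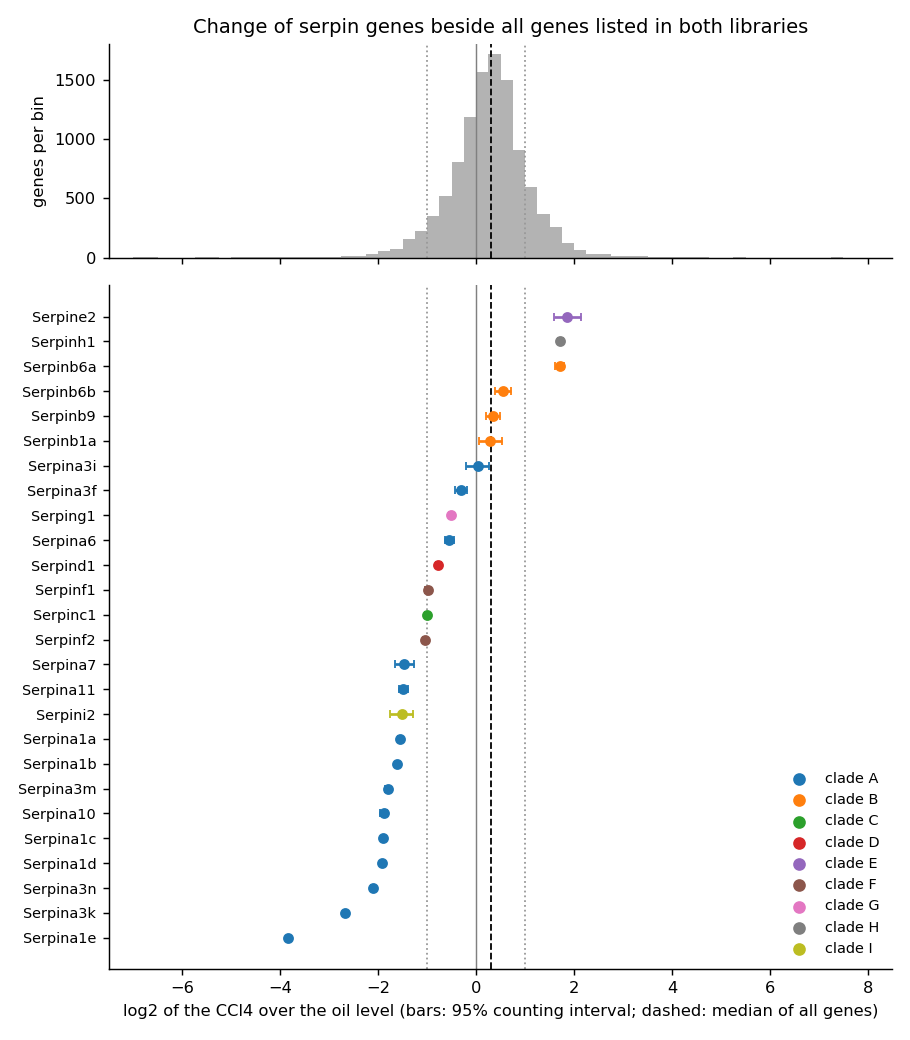
Top, number of genes per bin of log2 fold change (with 0.1 RPKM added) over 10689 genes. Bottom, log2 ratio of the CCl4 over the oil level (nothing added) of 26 serpins listed in both libraries, coloured by clade, with 95% counting intervals. Serpina1e is lowest at -3.85, Serpinb6a, Serpinh1 and Serpine2 lie between 1.70 and 1.86, and the dashed line is the median of all genes, 0.30.

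Serpine2 (NM_009255), protease nexin-1, an inhibitor of thrombin and urokinase, rose from a low level. It was at 1.21 RPKM in oil and 4.40 RPKM in CCl4, a log2 fold change of 1.78. The oil value lies just above 1 RPKM, under which values were listed as 0. It rested on at least 144 reads in oil and 584 reads in CCl4, with a counting interval of 1.60 to 2.14. Serpine3 was listed in neither library. Of the plasma proteases, urokinase (Plau) was the 1 that rose, from 1.61 to 6.75 RPKM, and tissue plasminogen activator (Plat) was listed at 0 in oil and 6.89 RPKM in CCl4.

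Serpinh1 (NM_001111044), also known as HSP47, is a chaperone of the endoplasmic reticulum that binds procollagen and inhibits no protease. It was at 39.3 RPKM in oil and 129.5 RPKM in CCl4, 3.29-fold higher, with a log2 fold change of 1.72 and a counting interval of 1.66 to 1.78, and its 3 transcripts had the same log2 fold change to 2 decimals. It was the most abundant serpin among those that rose. Of 9 collagens and collagen-processing proteins, 6 rose and none fell, with a median of 2.10, beside 14.3% higher and 5.48% lower of all genes. Col1a1 was at 3.02 RPKM in oil and 130.5 RPKM in CCl4 and Col3a1 at 19.6 and 290.1 RPKM, while the processing enzyme P4hb was at 323 and 233 RPKM, which was not called. Serpinh1 differed less between the libraries than any of the 6 collagen genes, whose smallest log2 fold change was 2.01.

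Markers of stellate cells and myofibroblasts moved with Serpinh1 and Serpine2. All 8 of the 9 markers that were listed in both libraries rose, with a median of 3.32, and Pdgfrb was listed at 0 in oil and 16.8 RPKM in CCl4. Lrat was at 1.84 and 23.6 RPKM and Acta2 at 1.58 and 8.92 RPKM. Of the 9 markers, 3 are also on the collagen list. Among markers of Kupffer cells and macrophages 4 of 6 rose, and their median was 1.17. Among endothelial markers 1 of 6 rose, a share near the 14.3% of all genes, with a median of 0.71 and a sum of 398 RPKM in oil and 654 RPKM in CCl4. The 4 platelet markers had a median of 1.14, with sums of 10.9 and 30.3 RPKM. Cholangiocyte markers summed to 13.4 and 25.1 RPKM and mesothelial markers to 31.6 and 50.3 RPKM, with Sox9 at 0 in both libraries. The part of these cells in the higher serpin values was not tested.

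**Figure D5:**
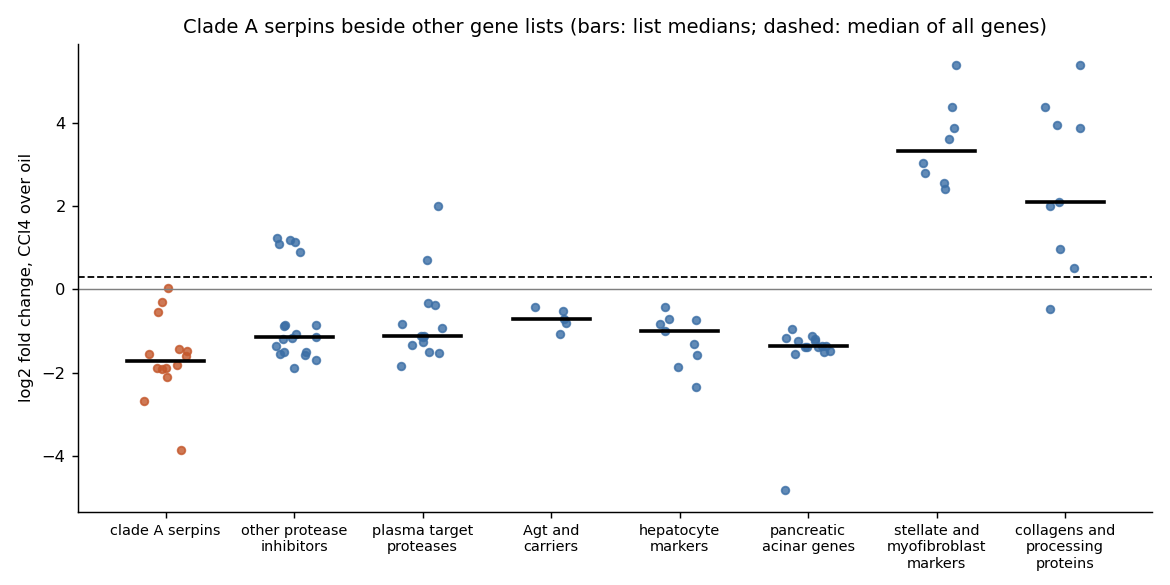
Log2 fold change of the genes listed in both libraries for clade A serpins and 7 other lists, with 1 point per gene, a bar at each list's median and a dashed line at the median of all genes, 0.30. Clade A serpins (median -1.71) lie with or below the other liver-secreted lists, whereas stellate cell markers (3.32) and collagens with their processing proteins (2.10) lie above. Some genes are on 2 lists.

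Clade B serpins act inside cells, where they protect the cell from its own proteases or from granule proteases of leukocytes. Of 27 members, 4 were listed in both libraries, 2 in CCl4 only and 21 in neither. Serpinb6a (NM_001243192), an inhibitor of cathepsin G, was at 23.5 RPKM in oil and 76.7 RPKM in CCl4, 3.26-fold higher, and its 4 transcripts had log2 fold changes between 1.70 and 1.79. It was the 1 member of the clade that rose by the call. Serpinb6b was at 4.52 and 6.61 RPKM, Serpinb9, an inhibitor of granzyme B, at 3.29 and 4.18 RPKM, and Serpinb1a, an inhibitor of neutrophil serine proteases, at 2.35 and 2.87 RPKM, with log2 fold changes of 0.54, 0.34 and 0.28 near the median of all genes. Serpinb8 was listed at 0 in oil and 2.83 RPKM in CCl4, and Serpinb2 at 0 and 1.68 RPKM. Serpinb6a made up most of the clade's sum, which was 33.7 RPKM in oil and 94.9 RPKM in CCl4. Of 9 leukocyte and lysosomal proteases that these and other serpins inhibit, the lysosomal cathepsins Ctss and Ctsb rose from 93.5 to 389 RPKM and from 164 to 481 RPKM. The granule protease Prtn3 fell from 7.96 to 1.98 RPKM, Ctsg was listed at 1.74 RPKM in oil and at 0 in CCl4, and the neutrophil markers S100a8 and S100a9 were at 114 and 163 RPKM in oil and 65.2 and 91.5 RPKM in CCl4.

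Clade I was listed through Serpini2 (NM_026460), a serpin known from the exocrine pancreas. It was at 6.83 RPKM in oil and 2.38 RPKM in CCl4, a log2 fold change of -1.48 with a counting interval of -1.75 to -1.29. The pancreatic acinar genes in the same libraries had a similar difference. Of 15, in a list chosen after values were seen, 14 were called lower, with a median of -1.37. Over all genes, 5.48% were called lower, and 32.2% of those with a mean of at least 100 RPKM. Cela2a, a pancreatic elastase, was at 1448 RPKM in oil and 515 RPKM in CCl4. The part of pancreatic RNA in the values of Serpini2 was not tested. Serpini1, neuroserpin, was listed in neither library.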

How the data were processed

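RNA-seq of 2 libraries was analysed, with 1 control (oil) and 1 model (CCl4) library grouped by the labels. The authors deposited RPKM per RefSeq transcript, with values under 1 RPKM listed as 0, beside columns of their own comparison (a log2 change, a p-value and a q-value) that were not used here. Their processing notes name CASAVA 1.4, TopHat2 and the mm10 genome, and the counting program is not given in the sources used here. For lncRNAs outside the annotation the authors also deposited whole read counts, used here to check recovered reads.

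Symbols were taken from RefSeq annotation (GRCm38.p6) for 27049 of 27457 mRNA transcripts. The 60 genes have 75 transcripts. Promoter windows (RefSeq) were found for 51 of them, and 6 motifs were searched on both strands (GTTAAT, the sites of AP-1, STAT and heat shock factors, the GC box and the Smad box). RPKM steps of genes shorter than 400 bases gave library totals, with whole reads in 163 of 167 oil and 175 of 180 CCl4 values, where whole means within 6e-06 of the reads or 1e-04 reads, whichever is larger. Member reads are lower bounds, from the shortest length between 1000 and 12000 bases at which both values became whole. On 1397 lncRNAs with known counts the bound was exact in 83.4% and above the oil count in none. Their search began at a shorter length than that of the members, so the exact share does not carry over to members. A lower bound widens the 95% counting intervals and can only make them too wide. For the most abundant members this tolerance is met at nearly any length, so their bound is in effect that of a transcript of 1000 bases.

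Described in full were members with at least 10 RPKM in a library and called members, and from other lists at most the 3 most abundant genes, the 3 largest changes and genes that a result turns on. Values of 1 called member are not reported here. Members and lists were chosen with earlier results of these data known, and medians of lists cover genes listed in both libraries. Alternatives were 1 RPKM added, median-of-ratios scaling, library sizes without the 10 most abundant transcripts, summed transcripts, a listed 0 set to 1 RPKM, a minimum mean of 10 RPKM and a call at a log2 of 2, and, chosen after seeing the data, leaving out the near-identical copies. Python 3.11.15, numpy 2.4.6, pandas 2.3.3, scipy 1.17.1, Biopython 1.88 and matplotlib 3.10.9 were used.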

Additional observations from a re-analysis of the deposited data

How the results depend on the processing

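Under median-of-ratios scaling, which lowers log2 values by about 0.30, the median serpin log2 fold change was -1.31 and the clade A sum -2.79. With the 10 most abundant transcripts left out of the library size, the median was -1.06 and the clade A sum -2.53. With transcripts summed, the clade A sum was -2.43 (-2.425). With a mean of at least 10 RPKM, 2 serpins were called higher and the median was -1.48. At a log2 of 2, 0 serpins were called higher and 3 lower (Serpina1e, Serpina3k and Serpina3n). Without the near-identical copies, an alternative chosen after seeing the data, 6 were called lower, the median was -0.54 (-0.544) and the clade A sum -1.64. With a listed 0 set to 1 RPKM, 5 were called higher and 15 lower. Leaving aside the call at a log2 of 2 and the omission of copies, 22 named members had 129 values under the other 6 alternatives (Serpina7, Serpine2 and Serpini2 had none at a mean of at least 10 RPKM). Of these 129 kept their sign and 126 their call, and the other 3 were those of Serpinf1 under both scalings and of Serpind1 under the first. No sign could change under the scalings. They lower values by at most about 0.30, and the named members above 0 had log2 fold changes of about 1.70 or more. Serpina3i (0.03), Serpinb1a (0.28), Serpinb6b (0.54) and Serpinb9 (0.34) had no values of their own under these alternatives. With nothing added, the log2 ratios of Serpina3i (0.036) and Serpinb1a (0.291) are smaller than the median-of-ratios shift of 0.302. Under that scaling both would therefore fall below 0. No paired analysis was possible because each condition had 1 library. Depth was sufficient for narrow counting intervals at high levels, and the listing of values under 1 RPKM as 0 limits Serpine2 and the genes listed in 1 library. Without replicates the spread between mice is unknown.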

Other observations

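Further serpin loci were listed among the lncRNAs. Serpina4-ps1 (NR_002861), a pseudogene of clade A in the same stretch of chromosome 12 (positions 104077959 to 104086920, mm10), was at 109 RPKM in oil and 1.77 RPKM in CCl4, a log2 fold change of -5.86, below that of each coding serpin listed in both libraries. Serpina3h (NR_033450) was at 2.62 RPKM in oil and 2.20 RPKM in CCl4, a log2 fold change of -0.24 that was not called, similar to the low coding copies Serpina3f and Serpina3i.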
